A study of Arabidopsis thaliana with 57 samples.

Results

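The light response of the lit leaf was compared between 2 kinds of plant chain, in 12 libraries of the 57 in the study. In each chain 3 Arabidopsis thaliana plants touched leaf to leaf, and elevated light was given to the local leaf of a wild-type plant. In the 3WT chain all plants were wild type Col-0. In the WT-hpca1-WT chain the middle plant carried the hpca1-1 allele and both other plants were Col-0. The local leaf was therefore wild type in all 4 groups, no leaf analysed in them was a mutant leaf, and a single mutant allele was used. The 4 groups, with 3 libraries each, were the local leaf of either chain under control light (CT) and under elevated light (EL, 2000 µmol photons per m2 and s for 30 min). Plants were 4 to 5 weeks old and had grown at 50 µmol photons per m2 and s in 10 h light and 14 h dark. Touching leaves of every chain, controls included, were joined with a phosphate-buffered solution that held Silwet L-77 and agarose, and each repeat pooled leaves from 10 to 15 plants. The libraries were chosen by their labels for plant chain, light and leaf position.

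Light in excess of what photosynthesis can use raises reactive oxygen species in chloroplasts and in the cell wall space, and within minutes the leaf induces heat shock, calcium and hormone response genes. The reactive oxygen signal can travel from leaf to leaf as a wave, together with calcium and electrical signals, and it can cross to a plant whose leaf is in contact. HPCA1 is a leucine-rich repeat receptor kinase of the plasma membrane that senses extracellular hydrogen peroxide and opens calcium influx. The comparison addressed whether the lit leaf itself responded differently when a plant of its chain was mutant for HPCA1.

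The quantity reported is the chain difference in the light response: the change from control to elevated light in the WT-hpca1-WT chain minus the same change in the 3WT chain, on the log2(FPKM + 1) scale, where FPKM is fragments scaled for transcript length and for the mapped fragments of the library. A positive chain difference can come from a stronger induction, from a weaker repression, or from a lower starting level in the WT-hpca1-WT chain, so the difference between chains in control leaves (the control difference) and in lit leaves (the lit difference), both WT-hpca1-WT minus 3WT, are given beside it. Fold changes on this scale understate those of genes with low values. Each was tested with limma over 18735 genes and was called at an adjusted p under 0.05. The labels say that each repeat pools plants, and nothing more on how repeats were kept apart, so the p-values measure the spread between these samples.

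HPCA1 itself checked the labels. Across all chain libraries, the 6 libraries of the hpca1-1 leaves held 24.2 to 33.3 FPKM (median 28.4) and the 42 wild-type libraries 43.4 to 61.4 FPKM (median 53.7), without overlap. In the local leaf, HPCA1 was at 54.3, 56.5 and 58.7 FPKM in the 3WT control leaves and 47.5, 48.7 and 46 in the lit 3WT leaves. It was at 56.8, 57.8 and 60.6 FPKM in the WT-hpca1-WT control leaves and 45.9, 45.5 and 44.4 in the lit WT-hpca1-WT leaves. Both chains had lower values in the light, the ranges of the chains overlapped in control leaves and not in lit leaves, and the chain difference was -0.11 ± 0.06 (SE, adjusted p = 0.201).

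The 12 libraries were close in totals and varied in their organelle shares. Summed FPKM ran from 757989 to 782038, and 16896 to 17293 genes had an FPKM of at least 1. Chloroplast-encoded genes took 0.244% to 0.877% of the sum and mitochondrion-encoded genes 0.0215% to 0.193%. The first lit 3WT library had the lowest sum, the fewest genes and the highest chloroplast share. The highest mitochondrial share was in the third lit 3WT library. The part of these shares in the results was not tested. Replicates correlated across genes with a Pearson r of 0.993 to 0.996. Relative depth, read from the steps between low FPKM values and set against the geometric mean of the 12 libraries, ran from 0.826 to 1.19. The 3 lit WT-hpca1-WT libraries were the shallowest, at 0.826 to 0.91, against 0.991 to 1.17 in the lit 3WT libraries. The part of depth in the results was not tested. The labels name no growth or sequencing batch and no time of day, so chain and any batch cannot be told apart. Of the leaf cell types checked, mesophyll markers summed to between 14085 and 16671 FPKM in every library. The 3 root markers summed to at most 0.372 FPKM. Of 3 epidermis and 5 guard cell markers, 0 had a called chain difference, but their sums did not overlap in 1 light each. Guard cell sums were 21.3 to 23.3 FPKM in lit 3WT leaves and 24.6 to 24.8 in lit WT-hpca1-WT leaves. Epidermis sums were 117 to 122 FPKM in 3WT controls and 114 to 115 in WT-hpca1-WT controls. Of 4 phloem markers, 3 had a higher chain difference; their sums were 234 to 286 FPKM in 3WT controls, 188 to 196 in lit 3WT leaves, 216 to 220.0 in WT-hpca1-WT controls and 193 to 214 in lit WT-hpca1-WT leaves. Of 3 xylem markers 0 had a called chain difference, but all 3 were higher in lit WT-hpca1-WT leaves (median lit difference 0.50). Their sums were 18.992 to 20.416 FPKM in lit 3WT leaves and 29.067 to 29.537 in lit WT-hpca1-WT leaves, without overlap. In control leaves the xylem sums of the chains overlapped. The part of the marker differences in the results was not tested. In such whole-leaf samples, fewer cells of a type and less RNA per cell cannot be told apart.

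Among the 18735 genes, the chain difference was higher for 1038 genes (5.54%) and lower for 1835 genes (9.79%), and its median over all genes was -0.03. Of these calls, 60 higher and 107 lower ones were at least 1 on the log2 scale. The share of higher among all called genes, 36.1%, depended on the scaling of the libraries: it was 44.2% (1246 higher and 1573 lower) after median-of-ratios scaling and 51.9% (1439 and 1331) after quantile normalization. The chains also differed within each light. In control leaves 1494 genes were higher (7.97%) and 901 lower (4.81%) in the WT-hpca1-WT chain, and in lit leaves 1101 were higher (5.88%) and 1695 lower (9.05%). These splits also moved with the scaling: the control counts became 1035 and 1158 after median-of-ratios scaling and 1111 and 1118 after quantile normalization, and the lit counts became 1477 and 1417 after quantile normalization. Of the 1038 genes with a higher chain difference, 404 (38.9%) were lower in WT-hpca1-WT control leaves without being higher in the lit leaves, 352 (33.9%) were higher in the lit leaves alone, 160 did both and 122 did neither. The first 2 counts were 516 and 395 after median-of-ratios scaling, and their order turned after quantile normalization, at 485 and 538. Of the 1835 genes with a lower chain difference, 530 (28.9%) were higher in control leaves alone, 740 (40.3%) were lower in lit leaves alone, 345 did both and 220 did neither.

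The light response itself covered many genes in both chains. In 3WT leaves 2631 genes (14.0%) rose and 8478 (45.3%) fell, and in WT-hpca1-WT leaves 2554 (13.6%) rose and 9160 (48.9%) fell. Elevated light shifted the median of all genes to -0.16 in 3WT and -0.19 in WT-hpca1-WT leaves, and median-of-ratios scaling brought both medians to -0.00 and the counts to 4882 rising and 3865 falling in the first and 4798 and 4270 in the second. In the second, 5343 fell after quantile normalization. Light responses smaller than about 0.2 are therefore given without a direction. Among the genes with a lower chain difference, 614 fell in both chains and 426 were called as falling in the WT-hpca1-WT chain alone. A further 366 rose in both, 269 were called as rising in the 3WT chain alone, and 152 rose in 3WT and fell in WT-hpca1-WT leaves. Among those with a higher chain difference, 264 rose in both chains, 255 were called as falling in the 3WT chain alone, and 242 were called as rising in the WT-hpca1-WT chain alone. In this group 156 fell in both chains, and 116 fell in 3WT and rose in WT-hpca1-WT leaves. After median-of-ratios scaling the genes that fell in both chains with a lower chain difference numbered 300 and those that rose in both with a higher one 489. After quantile normalization the first numbered 365. The 242 genes became 368 and 433 under these scalings, the 116 became 73 and 99, and the 152 became 124 and 98. In the same order the 426 became 319 and 261, the 255 became 224 and 379, and the 156 became 80 and 192.

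**Figure D1:**
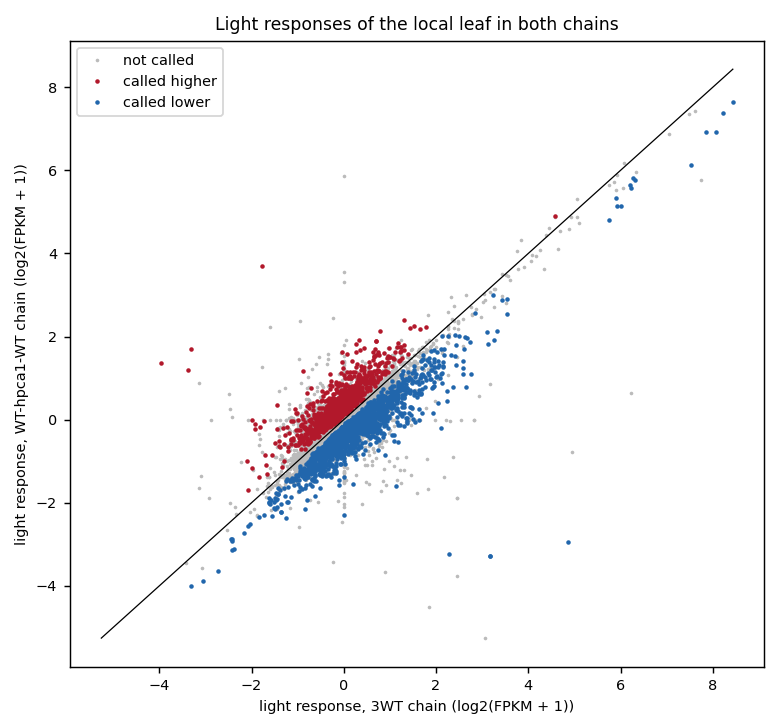
Light response of every tested gene in the WT-hpca1-WT chain (y axis, log2) against that in the 3WT chain (x axis, log2), in the local leaf; the line marks equal responses and colours mark the 1038 genes with a higher and the 1835 with a lower chain difference. The axes share the 3WT and WT-hpca1-WT libraries with the chain difference itself, and the colours show where the called genes lie along the range of responses.

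All 24 chaperones and 15 of 17 small heat shock proteins rose with light in each chain, and 1 of these 2 lists' genes had a higher chain difference. Of 24 chaperones 7 were higher and 0 lower in WT-hpca1-WT control leaves, and 1 was higher and 5 lower in lit leaves. HSP101, the disaggregating chaperone of heat acclimation, was at 1.87, 2.04 and 2.2 FPKM in the 3WT control leaves, 556, 549 and 517 in the lit 3WT leaves, 2.64, 2.47 and 2.08 in the WT-hpca1-WT control leaves and 546, 558 and 554 in the lit WT-hpca1-WT leaves. The lit groups overlapped, and the chain difference was -0.13 ± 0.10 (SE, adjusted p = 0.493). Of the 24 chaperones and co-chaperones, 0 had a higher and 8 a lower chain difference (median -0.12). HSP70 was at 9.61, 10.5 and 9.95 FPKM in the 3WT control leaves, 888, 870.3 and 849 in the lit 3WT leaves, 16, 14.6 and 14 in the WT-hpca1-WT control leaves and 855, 882 and 853 in the lit WT-hpca1-WT leaves, a chain difference of -0.53 ± 0.08 (SE, adjusted p = 1.28e-06): the control groups did not overlap and the lit groups did. Of 17 small heat shock proteins, which hold unfolding proteins in solution, 1 had a higher and 7 a lower chain difference (median -0.21), while 8 were higher in WT-hpca1-WT control leaves, 2 were higher in lit leaves and 0 lower. The 1 higher chain difference was not called without the third 3WT control, the second or the third lit 3WT, or the second or the third lit WT-hpca1-WT library. HSP17.4 was at 1.96, 0.932 and 1.05 FPKM in the 3WT control leaves and 428, 424 and 410.2 in the lit 3WT leaves. It was at 4.87, 6.34 and 4.52 FPKM in the WT-hpca1-WT control leaves and 422, 408 and 466 in the lit WT-hpca1-WT leaves. Its control values were 4.52 to 6.34 FPKM against 0.932 to 1.96 and the lit groups overlapped, with a chain difference of -1.41 ± 0.28 (SE, adjusted p = 0.000323). The heat shock factors were mixed: of 16, 8 rose and 4 fell in 3WT, 7 rose and 3 fell in WT-hpca1-WT leaves, and 3 had a lower chain difference, among them HSFA8 (-0.80 ± 0.10, adjusted p = 2.21e-07).

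Among genes that are used as markers of light stress, ELIP1, APX2 and RHL41 were not called. GolS1, described below with the sugar genes, was called at 0.73 (adjusted p = 7.03e-10). ELIP1, an early light-induced protein of thylakoids, had a chain difference of 0.05 ± 0.19 (SE, adjusted p = 0.916), the cytosolic ascorbate peroxidase APX2 one of 0.21 ± 0.14 (SE, adjusted p = 0.387), and the zinc finger factor RHL41 (ZAT12) one of -0.27 ± 0.17 (SE, adjusted p = 0.318). APX2 was low, at most 2.63 FPKM in any local-leaf library, and its value ran from -0.14 to 0.30 over the alternatives. STZ (ZAT10) reached 75.2, 80.5 and 78 FPKM in lit 3WT leaves and 61, 54.4 and 50.9 in lit WT-hpca1-WT leaves, which did not overlap, from 19.5, 20.5 and 21.2 and 17, 16.2 and 17.3 in the controls. Its chain difference of -0.23 ± 0.08 (SE, adjusted p = 0.0439) was called, and the call was lost under 13 of 21 alternatives (highest adjusted p = 0.362). Of 27 photoprotection genes 3 were higher and 1 lower (median 0.05).

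The lists were described by their counts and medians, beside the median of -0.03 and the shares of 5.54% and 9.79% over all genes. Of 537 genes on 28 lists of pathways and gene families, 498 passed the filter and were tested. The lists differed in the direction of the chain difference: endoplasmic reticulum folding, salicylate, WRKY, touch and evening clock genes lay below 0 and jasmonate, defensin, glucosinolate, aquaporin and light-harvesting genes above it.

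**Figure D2:**
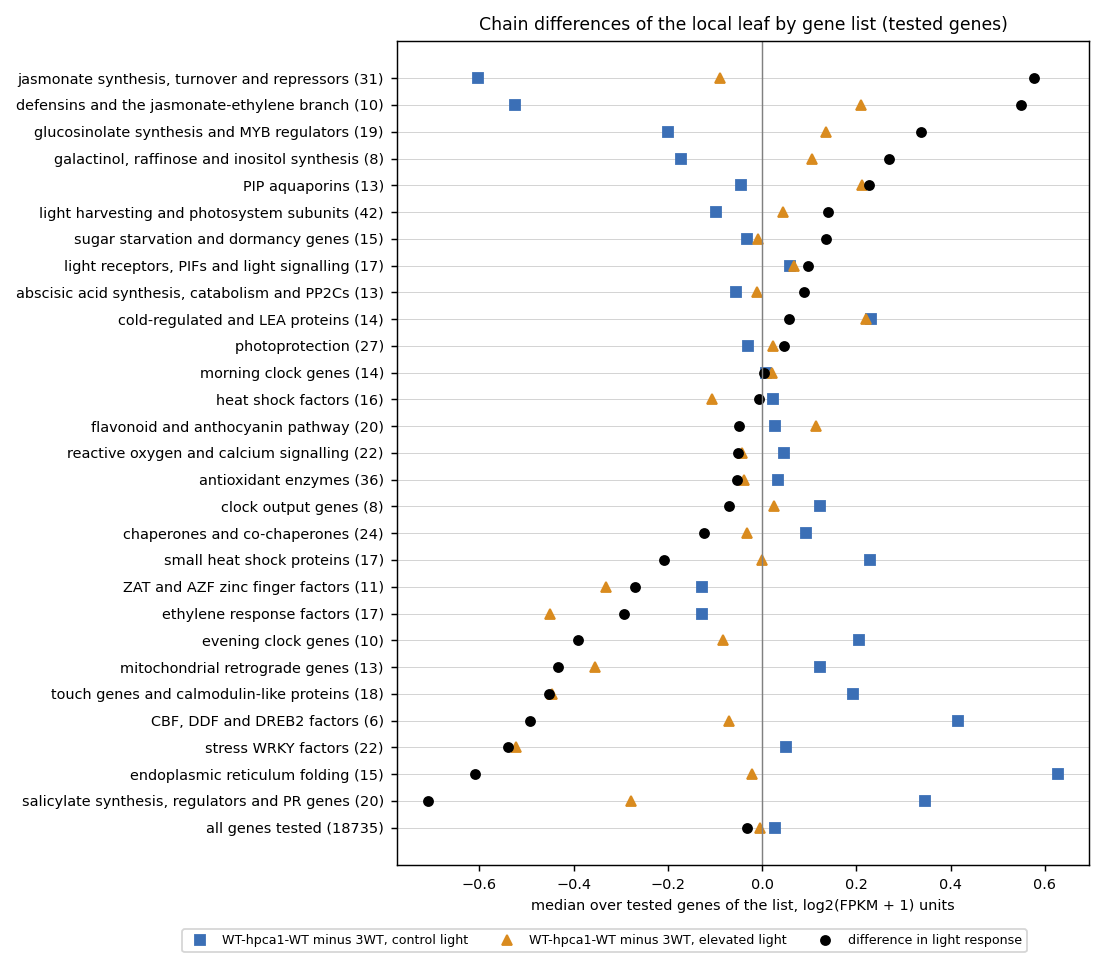
Median log2 difference of each gene list in the local leaf: WT-hpca1-WT minus 3WT in control leaves (squares), the same in lit leaves (triangles) and the chain difference in the light response (circles). For jasmonate and endoplasmic reticulum folding genes the squares lie farther from 0 (-0.60 and 0.63) than the triangles (-0.09 and -0.02), and for the WRKY factors the triangle does (-0.52 against 0.05).

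The endoplasmic reticulum folding genes were the most uniform group below 0. Of 15 genes, 14 had a lower chain difference and 0 a higher one (median -0.61); 14 were higher in WT-hpca1-WT control leaves, and in lit leaves 2 were higher and 2 lower. BIP proteins are the HSP70 chaperones of the endoplasmic reticulum lumen. BIP2 was at 68.7, 66.6 and 72.4 FPKM in the 3WT control leaves, 103, 111 and 102 in the lit 3WT leaves, 119, 119 and 118 in the WT-hpca1-WT control leaves and 103, 101 and 107 in the lit WT-hpca1-WT leaves. The WT-hpca1-WT controls lay above the 3WT controls without overlap, the lit groups overlapped, and the chain difference was -0.79 ± 0.05 (SE, adjusted p = 6.37e-14). SHD, the HSP90 of the endoplasmic reticulum, was at 138, 144 and 146 FPKM in the 3WT control leaves and 94.6, 103 and 94.1 in the lit 3WT leaves. It was at 228, 232 and 226 FPKM in the WT-hpca1-WT control leaves and 101, 97.8 and 102 in the lit WT-hpca1-WT leaves. The control groups again did not overlap, lit leaves of both chains came to about the same level, and the chain difference was -0.63 ± 0.04 (SE, adjusted p = 3.45e-15). The lectin chaperone CNX1 (-0.56 ± 0.04, adjusted p = 7.31e-13) and the calreticulin CRT3 (-0.58 ± 0.04, adjusted p = 7.23e-13) had the same direction. The transducer of the unfolded protein response BZIP60 differed in both lights: it was at 40.4, 44 and 41.5 FPKM in the 3WT control leaves, 99.5, 102 and 114 in the lit 3WT leaves, 54, 51.8 and 55.4 in the WT-hpca1-WT control leaves and 70.3, 67.1 and 72 in the lit WT-hpca1-WT leaves, so that it was higher in the WT-hpca1-WT controls and lower in the lit WT-hpca1-WT leaves, with a chain difference of -0.93 ± 0.08 (SE, adjusted p = 2.06e-11). BZIP28, the membrane-bound factor of the same response, was the member not called (-0.07 ± 0.06, adjusted p = 0.568). The count of 14 was the same under every alternative except the minimum change of 1, which 0 of them reached.

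Promoters of this group carry a known composite element. The endoplasmic reticulum stress element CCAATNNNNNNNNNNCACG, searched on both strands, was found in the 300 bases before the annotated start of 5 of 15 members (33.3%) and of 183 of 18577 tested genes (0.985%). A match describes the letters and not a binding site. The sequences below, from the RefSeq TAIR10.1 assembly and written 5′ to 3′ on the gene's strand, show the element in 3 members whose chain difference was called; capitals mark its fixed letters, which read CGTG and ATTGG where it lies on the other strand. They are from chr1:7645408-7645456 (+), chr1:2931913-2931961 (-) and chr1:29126569-29126617 (+). 
PDIL1-1: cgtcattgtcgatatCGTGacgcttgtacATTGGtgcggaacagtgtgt
BIP3: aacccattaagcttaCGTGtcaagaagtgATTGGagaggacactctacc
PDIL1-2: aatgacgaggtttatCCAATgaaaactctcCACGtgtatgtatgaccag
The disulfide isomerases PDIL1-1 and PDIL1-2 form disulfide bonds in new proteins. Their chain differences were -0.77 ± 0.07 (SE, adjusted p = 3.33e-11) and -0.76 ± 0.08 (SE, adjusted p = 8.75e-10). BIP3, the inducible BIP, was at 11.1, 11.3 and 11.3 FPKM in the 3WT control leaves, 9.21, 9.52 and 7.32 in the lit 3WT leaves, 23.9, 23.2 and 22.4 in the WT-hpca1-WT control leaves and 8.84, 8.48 and 8.36 in the lit WT-hpca1-WT leaves: the WT-hpca1-WT controls all lay above the 3WT controls, the lit groups overlapped, and the chain difference was -0.99 ± 0.10 (SE, adjusted p = 2.41e-10).

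Salicylate genes also had a lower chain difference, but here both lights contributed. Of 20 genes of salicylate synthesis, its regulators and pathogenesis-related (PR) proteins, 17 were lower and 1 higher (median -0.71); 14 were higher in WT-hpca1-WT control leaves and 2 lower, and 12 were lower in lit leaves and 1 higher. Salicylate is the hormone of defence against biotrophic pathogens, and isochorismate synthase of chloroplasts is an enzyme of its synthesis. That enzyme's gene EDS16 (ICS1) was at 28.6, 28.3 and 26.2 FPKM in the 3WT control leaves, 34.2, 39 and 34.8 in the lit 3WT leaves, 35.3, 34.5 and 35.8 in the WT-hpca1-WT control leaves and 28.4, 27.7 and 28.1 in the lit WT-hpca1-WT leaves. Control values were higher and lit values lower in the WT-hpca1-WT chain, without overlap in either light, and the chain difference was -0.68 ± 0.06 (SE, adjusted p = 2.08e-10). All 5 upstream regulators were lower, and SARD1, an activator of EDS16, had a chain difference of -1.13 ± 0.08 (SE, adjusted p = 1.37e-13). All 4 of the receptor group, NPR1, NPR3, NPR4 and their partner NIMIN1, were lower, from -0.22 to -1.14. The smallest of them, NPR4, lost its call under 11 of 21 alternatives, with a highest adjusted p of 0.191. All 3 PR genes were lower. PR1, the classical salicylate marker, was at 140.3, 148 and 133 FPKM in the 3WT control leaves and 88.1, 94.3 and 88.1 in the lit 3WT leaves. It was at 194, 181 and 189.8 FPKM in the WT-hpca1-WT control leaves and 53.1, 49 and 54 in the lit WT-hpca1-WT leaves. The light response was -0.63 in 3WT and -1.84 in WT-hpca1-WT leaves, so the chain difference was -1.21 ± 0.09 (SE, adjusted p = 1.53e-13). The exception above 0 was BSMT1, which methylates salicylate and benzoate (1.19 ± 0.17, adjusted p = 1.09e-06). The senescence marker SAG13 differed in the same direction as the PR genes in lit leaves, from 49.8, 52.6 and 54.5 FPKM in lit 3WT to 34.1, 30.2 and 31.4 in lit WT-hpca1-WT leaves, with a chain difference of -0.69 ± 0.12 (SE, adjusted p = 5.94e-05); its part in the result was not tested.

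WRKY factors, the DNA-binding regulators of defence genes, differed mostly in 1 direction in the lit leaves and in both directions in the controls. Of 22, 15 had a lower and 0 a higher chain difference (median -0.54); 15 were lower and 1 higher in lit WT-hpca1-WT leaves, and the controls were split, with 6 higher and 5 lower. WRKY53, a regulator of leaf senescence and defence, was at 13, 13.4 and 12.6 FPKM in the 3WT control leaves, 34.5, 36.4 and 35 in the lit 3WT leaves, 14.6, 16 and 14.9 in the WT-hpca1-WT control leaves and 14.4, 16.8 and 13.5 in the lit WT-hpca1-WT leaves. It rose with light in the 3WT chain by 1.38, had a light response of -0.03 (adjusted p = 0.725) in the WT-hpca1-WT chain, and its chain difference was -1.41 ± 0.10 (SE, adjusted p = 1.5e-13). WRKY46 was at 14.2, 12.8 and 12.7 FPKM in the 3WT control leaves, 27.4, 30.4 and 29.6 in the lit 3WT leaves, 21.6, 20.9 and 21.7 in the WT-hpca1-WT control leaves and 17.1, 16.1 and 15.9 in the lit WT-hpca1-WT leaves, a chain difference of -1.45 ± 0.10 (SE, adjusted p = 1.43e-13): light raised it in 3WT and lowered it in WT-hpca1-WT leaves. WRKY70, a salicylate-induced factor, differed in the controls instead, at 98.8, 101 and 102 against 162, 157 and 157 FPKM, while its lit difference was 0.05 (adjusted p = 0.335).

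The W-box core TTGAC, to which WRKY factors bind, lay in the 300 bases before the start of 19 of 22 WRKY genes (86.4%) and of 10 of 20 salicylate genes (50%), against 49.9% of all 18577 windows; both strands were searched. It is shown in capitals, as TTGAC or as its complement GTCAA, in 2 genes of each group from the RefSeq TAIR10.1 assembly, at chr3:21190213-21190247 (-), chr1:28177490-28177524 (+), chr2:19044984-19045018 (-) and chr4:12394033-12394067 (-).
BGL2: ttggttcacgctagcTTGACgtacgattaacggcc
PR5: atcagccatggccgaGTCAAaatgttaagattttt
WRKY46: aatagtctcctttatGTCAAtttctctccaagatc
WRKY53: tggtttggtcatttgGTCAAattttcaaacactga
BGL2 (PR2), a secreted glucanase, and PR5, a thaumatin-like protein, had chain differences of -0.90 ± 0.05 (SE, adjusted p = 4.07e-17) and -0.81 ± 0.05 (SE, adjusted p = 3.3e-15).

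Touch genes and calmodulin-like proteins, which respond to calcium and to mechanical stimuli, shared the direction of the WRKY factors. Of 18, 11 were lower and 0 higher (median -0.45), with 13 lower and 0 higher in lit WT-hpca1-WT leaves and 9 higher and 3 lower in controls. XTH18, a cell wall xyloglucan-modifying enzyme, had the most negative chain difference of the genes named here. It was at 2.01, 1.03 and 2.19 FPKM in the 3WT control leaves and 9.83, 11.1 and 10.9 in the lit 3WT leaves. It was at 5.27, 5.75 and 5.12 FPKM in the WT-hpca1-WT control leaves and 4.45, 4.44 and 4.84 in the lit WT-hpca1-WT leaves. The controls of the WT-hpca1-WT chain were above and its lit leaves below those of the 3WT chain, without overlap, and the chain difference was -2.30 ± 0.17 (SE, adjusted p = 2.74e-13). CML37, a calcium sensor induced by wounding, was at 1.28, 1.69 and 1.44 FPKM in the 3WT control leaves, 9.59, 11.9 and 10.3 in the lit 3WT leaves, 3.26, 3.39 and 4 in the WT-hpca1-WT control leaves and 4.44, 5.93 and 5.37 in the lit WT-hpca1-WT leaves. The WT-hpca1-WT chain rose less from a higher start, and the chain difference was -1.78 ± 0.17 (SE, adjusted p = 2.3e-10). TCH4, the touch-induced XTH22, rose in both chains, by 2.58 in 3WT and 1.25 in WT-hpca1-WT, a chain difference of -1.33 ± 0.13 (SE, adjusted p = 2.6e-10).

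Other genes of reactive oxygen and calcium signalling were mostly not called: of 22, 4 were lower and 2 higher (median -0.05). RBOHD, the NADPH oxidase that carries the reactive oxygen wave, was at 35, 36.4 and 35.5 FPKM in the 3WT control leaves and 80.3, 87.4 and 79.4 in the lit 3WT leaves. It was at 34.1, 33.3 and 32.2 FPKM in the WT-hpca1-WT control leaves and 59.5, 58.8 and 57.5 in the lit WT-hpca1-WT leaves. It rose in both chains, to a lower level in the WT-hpca1-WT chain, and the chain difference was -0.38 ± 0.07 (SE, adjusted p = 0.000112). BIK1, the kinase that activates RBOHD, was at 12.7, 13.2 and 13.9 FPKM in lit 3WT and 7.27, 8.89 and 7.3 in lit WT-hpca1-WT leaves, from overlapping controls, with a chain difference of -0.69 ± 0.10 (SE, adjusted p = 1.8e-06). MSL3, a mechanosensitive channel of plastids, went the other way (0.43 ± 0.05, adjusted p = 5.45e-08). The glutamate receptor-like channel gene GLR3.3 and the vacuolar channel gene TPC1 had chain differences of 0.19 ± 0.09 and -0.02 ± 0.05 (adjusted p = 0.139 and 0.892). Of 11 ZAT and AZF zinc finger factors 5 were lower, ZAT7 the farthest (-1.62 ± 0.15, adjusted p = 1.29e-10), and 7 were lower in lit leaves. Without the first 3WT control, the third lit 3WT, the third WT-hpca1-WT control or the second lit WT-hpca1-WT library 3 zinc finger factors were lower. Of 17 ethylene response factors 7 were lower, among them ERF6 (-1.17 ± 0.15, adjusted p = 1.29e-07) and 3 higher (median -0.29), and without the second lit 3WT library 4 were lower. Of 6 factors of the CBF, DDF and DREB2 families 3 were lower. DDF1, a factor of this group, was at 2.61, 3.16 and 3.18 FPKM in 3WT and 11, 9.7 and 9.26 in WT-hpca1-WT leaves in control leaves, which did not overlap, with a chain difference of -1.75 ± 0.18 (SE, adjusted p = 2.01e-09).

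Nuclear genes that respond to mitochondrial retrograde signals were lower for 6 of 13 and higher for 0 (median -0.43). In WT-hpca1-WT control leaves 4 were higher and 0 lower, and in lit leaves 8 were lower and 0 higher. BCS1, an AAA-type ATPase of the outer mitochondrial membrane, was at 11.1, 11.6 and 12 FPKM in the 3WT control leaves, 27.4, 30.9 and 27.6 in the lit 3WT leaves, 14.1, 13.2 and 14.8 in the WT-hpca1-WT control leaves and 16.1, 15.8 and 15.5 in the lit WT-hpca1-WT leaves. Light raised it in the 3WT chain by 1.24, the value in the WT-hpca1-WT chain was 0.16, and the chain difference was -1.08 ± 0.08 (SE, adjusted p = 1.05e-13). The dicarboxylate carrier UCP5 rose in both chains, from 33.3, 32.6 and 35.7 to 126, 134 and 128 FPKM in 3WT and from 40.0, 42.7 and 42.9 to 84.2, 85.9 and 82.3 in WT-hpca1-WT, a chain difference of -0.91 ± 0.07 (SE, adjusted p = 4.26e-13). The alternative oxidase AOX1A had one of -0.51 ± 0.09 (SE, adjusted p = 3.08e-05).

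Of 36 antioxidant enzymes 9 were lower and 4 higher (median -0.05). The copper/zinc superoxide dismutases, which turn superoxide into hydrogen peroxide, were the exception in size. CSD2, the plastid enzyme, was at 26.8, 23.8 and 23.8 FPKM in the 3WT control leaves and 39.3, 42.9 and 44.8 in the lit 3WT leaves. It was at 35.6, 39.9 and 35.9 FPKM in the WT-hpca1-WT control leaves and 21.1, 22.6 and 21.8 in the lit WT-hpca1-WT leaves. Light raised it in 3WT and lowered it in WT-hpca1-WT leaves, the groups overlapped in neither light, and the chain difference was -1.49 ± 0.09 (SE, adjusted p = 4.72e-16). CSD1, the cytosolic enzyme, had a chain difference of -0.81 ± 0.09 (SE, adjusted p = 4.8e-09), and their copper chaperone CCS one of -0.35 ± 0.11 (SE, adjusted p = 0.0264), whose call was lost under 6 of 21 alternatives. CSD3 of peroxisomes, the iron enzymes FSD1 and FSD2 and the manganese enzyme MSD1 were not called (from -0.13 to 0.12), whereas FSD3 had a chain difference of -0.41 ± 0.11 (SE, adjusted p = 0.0105). Without the third WT-hpca1-WT control library FSD3 was not called (adjusted p = 0.0529). The glutathione peroxidase GPX6 was lower (-0.53 ± 0.05, adjusted p = 5.69e-10), and VTC5, a step of ascorbate synthesis, was higher (0.41 ± 0.07, adjusted p = 4.24e-05).

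Jasmonate genes had the opposite pattern. Jasmonates are lipid-derived hormones of wounding and herbivory: they release MYC2 from JAZ repressors, and JAZ genes are themselves induced, so that JAZ transcripts report the pathway. Of 31 genes 23 had a higher and 2 a lower chain difference (median 0.58); 25 were lower and 3 higher in WT-hpca1-WT control leaves, and in lit leaves 8 were higher and 12 lower. The median light response was 0.19 in 3WT and 1.04 in WT-hpca1-WT leaves. Of 12 synthesis genes 8 were higher and 0 lower, and 10 were lower in WT-hpca1-WT controls. OPR3, which makes the jasmonate precursor's reduced ring, was at 372, 378 and 387 FPKM in the 3WT control leaves, 859, 863 and 857 in the lit 3WT leaves, 243, 231 and 230.1 in the WT-hpca1-WT control leaves and 844, 841 and 837 in the lit WT-hpca1-WT leaves. Controls lay apart, lit leaves came to nearly the same level, and the chain difference was 0.66 ± 0.03 (SE, adjusted p = 3.42e-17). LOX3, a lipoxygenase of the first step, was at 104, 113 and 109.8 FPKM in the 3WT control leaves, 292, 307 and 289 in the lit 3WT leaves, 64.8, 64.8 and 61.7 in the WT-hpca1-WT control leaves and 305, 295 and 289 in the lit WT-hpca1-WT leaves, a chain difference of 0.76 ± 0.06 (SE, adjusted p = 2.21e-13), with overlapping lit groups. The transcription factor MYC2 followed (0.55 ± 0.04, adjusted p = 2.94e-13).

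Of 11 JAZ repressor genes 10 were higher and 0 lower (median 0.63), 10 were lower in WT-hpca1-WT controls and 5 were lower in lit leaves. JAZ10 was at 63, 63.9 and 68 FPKM in the 3WT control leaves and 62.1, 65.2 and 65.4 in the lit 3WT leaves. It was at 24.6, 25.4 and 24.8 FPKM in the WT-hpca1-WT control leaves and 62.8, 61 and 57.2 in the lit WT-hpca1-WT leaves. In the 3WT chain control and lit leaves overlapped. In the WT-hpca1-WT chain the controls lay lower and light brought the leaves near the 3WT level, a chain difference of 1.26 ± 0.07 (SE, adjusted p = 5.47e-17). JAZ11 was the member not called (0.11 ± 0.13, adjusted p = 0.685). Of 5 enzymes that inactivate or modify jasmonates 4 were higher, and 4 were also higher in lit WT-hpca1-WT leaves. ST2A, which sulfates hydroxyjasmonate, was at 15.4, 16.8 and 18 FPKM in the 3WT control leaves, 3.37, 3.58 and 4.04 in the lit 3WT leaves, 8.8, 8.95 and 8.97 in the WT-hpca1-WT control leaves and 7.31, 7.65 and 7.54 in the lit WT-hpca1-WT leaves: the light response was -1.93 in 3WT and -0.22 in WT-hpca1-WT leaves, a chain difference of 1.71 ± 0.10 (SE, adjusted p = 2e-16). CYP94B1, which oxidizes the active jasmonate-isoleucine, was at 19.9, 22.4 and 23.7 FPKM in the 3WT control leaves, 27.3, 27.9 and 28.6 in the lit 3WT leaves, 9.37, 8.65 and 10.5 in the WT-hpca1-WT control leaves and 41.1, 39.8 and 35.3 in the lit WT-hpca1-WT leaves, a chain difference of 1.58 ± 0.10 (SE, adjusted p = 1.77e-15). The vegetative storage protein genes, late jasmonate-induced targets, were the 2 members below 0. VSP1 was at 498, 505 and 537 FPKM in the 3WT control leaves, 385, 395 and 395 in the lit 3WT leaves, 747, 787 and 767 in the WT-hpca1-WT control leaves and 313, 298 and 293 in the lit WT-hpca1-WT leaves, higher in WT-hpca1-WT controls and lower in its lit leaves, with a chain difference of -0.96 ± 0.05 (SE, adjusted p = 4.07e-17), and VSP2 had one of -0.81 ± 0.05 (SE, adjusted p = 2.7e-15).

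The G-box CACGTG, bound by MYC2, lay in the 300 bases before the start of 5 of 31 jasmonate genes (16.1%), 2 of 19 glucosinolate genes (10.5%) and 7.9% of all windows. It is shown in capitals for 3 jasmonate genes whose chain difference was higher, from the RefSeq TAIR10.1 assembly at chr5:17099596-17099616 (-), chr1:28150492-28150527 (-) and chr2:14572981-14573016 (+); in AOS it ends at the annotated gene start.
AOS: aaaaaagagtcaaagCACGTG
TIFY10B: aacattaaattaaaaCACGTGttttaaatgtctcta
JAZ7: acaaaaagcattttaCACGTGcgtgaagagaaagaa
AOS, allene oxide synthase of jasmonate synthesis, TIFY10B (JAZ2) and JAZ7 had chain differences of 0.56 ± 0.04 (SE, adjusted p = 4.46e-15), 0.63 ± 0.05 (SE, adjusted p = 1.31e-12) and 1.17 ± 0.11 (SE, adjusted p = 1.54e-10).

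The plant defensins PDF1.2, PDF1.2b and PDF1.2c, small secreted antifungal peptides induced by jasmonate with ethylene, had the largest positive chain differences on any list. PDF1.2 was at 36.1, 33.6 and 32.2 FPKM in the 3WT control leaves, 1.35, 1.22 and 1.15 in the lit 3WT leaves, 6.31, 3.89 and 6.44 in the WT-hpca1-WT control leaves and 13.2, 15.5 and 18.4 in the lit WT-hpca1-WT leaves. It fell with light in the 3WT chain by 3.96 on the log2 scale and rose in the WT-hpca1-WT chain by 1.36, no 2 of the 4 groups overlapped, and the chain difference was 5.33 ± 0.23 (SE, adjusted p = 1.49e-19). PDF1.2b was at 12.7, 11.3 and 10.9 FPKM in the 3WT control leaves, 0.0949, 0 and 0.634 in the lit 3WT leaves, 0.736, 1.41 and 2.05 in the WT-hpca1-WT control leaves and 3.87, 4.59 and 4.71 in the lit WT-hpca1-WT leaves, with a chain difference of 4.58 ± 0.30 (SE, adjusted p = 9.37e-15). PDF1.2c was listed at 0, 0.135 and 0 FPKM in lit 3WT leaves and at 2.61, 5.21 and 3.77 in lit WT-hpca1-WT leaves. The coding sequences of 4 defensin genes of this family have 243 bases each and are 91.4% to 94.7% identical, so reads can be split between copies and the value of any single copy is uncertain. Of 10 tested genes on this list 6 were higher and 1 lower (median 0.55). PR4, a hevein-like protein of the same branch, had a chain difference of 0.45 ± 0.10 (SE, adjusted p = 0.000725). ORA59, the factor that joins jasmonate and ethylene input, had one of 0.64 ± 0.21 (SE, adjusted p = 0.0352), and ERF1, the ethylene-induced activator of the same genes, one of -0.76 ± 0.23 (SE, adjusted p = 0.0173). The call of ORA59 was lost under 11 of 20 alternatives. That of ERF1 was lost under 3, without the first lit 3WT, the second WT-hpca1-WT control or the first lit WT-hpca1-WT library. RAP2.6, an ethylene response factor induced by jasmonate, was at 13.6, 16.2 and 15.2 FPKM in the 3WT control leaves, 13.3, 15.2 and 15.2 in the lit 3WT leaves, 9.63, 8.95 and 11.3 in the WT-hpca1-WT control leaves and 32.8, 32.4 and 32.8 in the lit WT-hpca1-WT leaves; only its lit WT-hpca1-WT leaves stood high, and the chain difference was 1.66 ± 0.14 (SE, adjusted p = 5.89e-12).

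The GCC box GCCGCC, the binding motif of ethylene response factors, was found before the start of 3 of 10 genes of the list (30%) and of 2.53% of all windows, on either strand. The windows of PDF1.2 at chr5:17907840-17907875 (-), PDF1.2b at chr2:11088965-11089000 (+) and ORA59 at chr1:1882662-1882697 (+) are shown with the box in capitals (RefSeq TAIR10.1).
PDF1.2: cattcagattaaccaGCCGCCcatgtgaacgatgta
PDF1.2b: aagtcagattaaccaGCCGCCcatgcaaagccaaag
ORA59: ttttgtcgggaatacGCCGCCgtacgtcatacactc

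**Figure D3:**
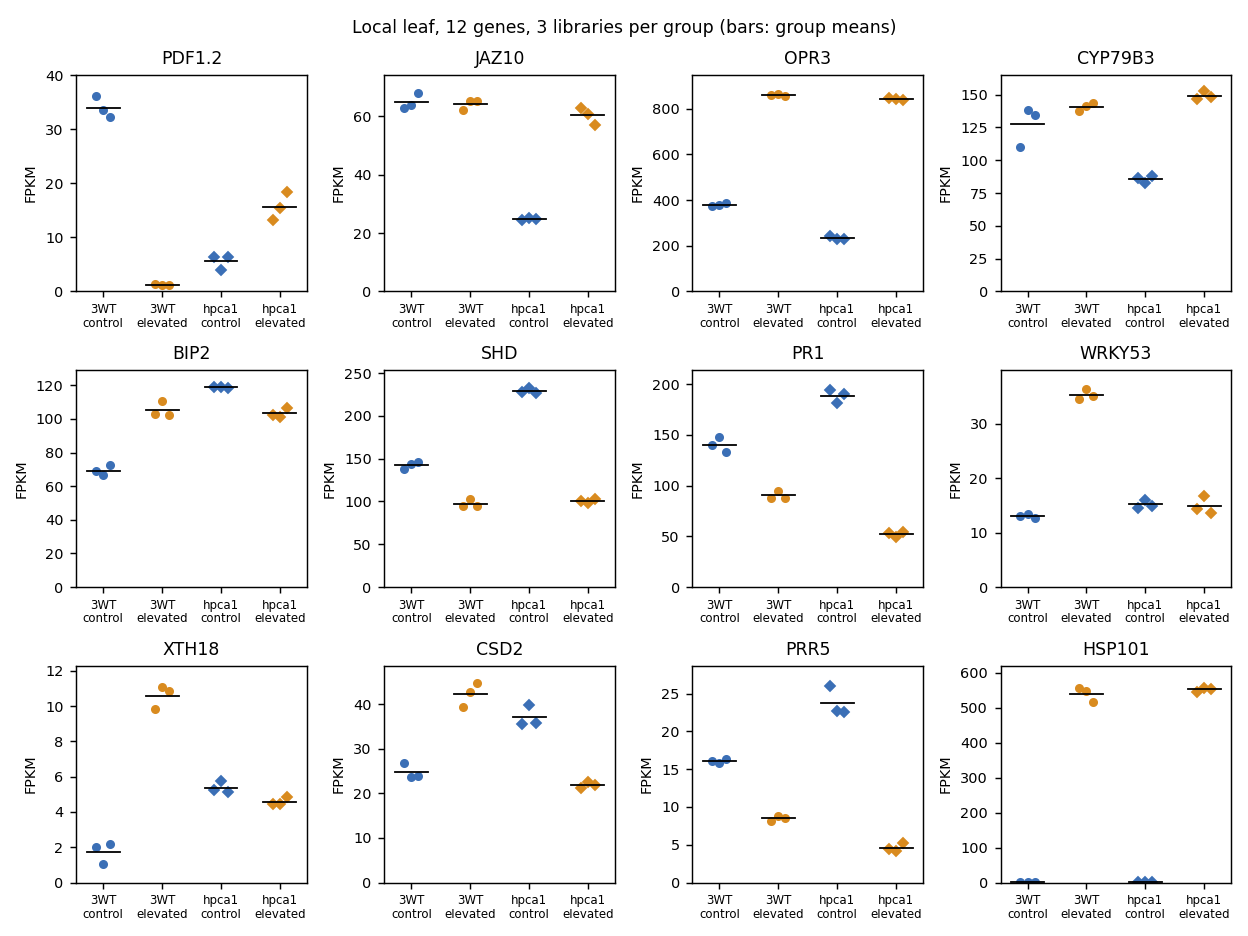
FPKM of 12 genes in each of the 12 local-leaf libraries (points, 3 per group; bars are group means) in 3WT control, 3WT elevated, WT-hpca1-WT control and WT-hpca1-WT elevated light. PDF1.2 is low in lit 3WT leaves (1.15 to 1.35) and higher in lit WT-hpca1-WT leaves (13.2 to 18.4), BIP2 and JAZ10 differ in the controls, WRKY53 differs in the lit leaves, and HSP101 has about the same level in both lit groups.

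Glucosinolates are the sulfur-rich defence compounds of Brassicales. Of 19 genes of their synthesis and of its MYB regulators, 15 were higher and 2 lower (median 0.34); 9 were lower and 0 higher in WT-hpca1-WT controls, and 8 were higher and 4 lower in lit leaves. The indole branch was split, with 5 of 7 higher and 2 lower. CYP79B3, its entry enzyme, was at 109.9, 138 and 134 FPKM in the 3WT control leaves, 138, 142 and 144 in the lit 3WT leaves, 86.2, 82.8 and 87.8 in the WT-hpca1-WT control leaves and 147, 153 and 148 in the lit WT-hpca1-WT leaves, a chain difference of 0.64 ± 0.07 (SE, adjusted p = 4.4e-09). Its regulators diverged: MYB34 had a chain difference of 1.00 ± 0.10 (SE, adjusted p = 5.62e-10), and MYB51, at 13.5, 14.5 and 13.2 FPKM in lit 3WT and 8.6, 8.06 and 7.28 in lit WT-hpca1-WT leaves, had one of -0.79 ± 0.09 (SE, adjusted p = 1.62e-08). CYP81F2, which makes the antifungal methoxy derivative of indole glucosinolate, was the other lower member (-1.05 ± 0.13, adjusted p = 7.15e-08). In the aliphatic branch 8 of 10 were higher and 0 lower. CYP79F1, its entry enzyme, was at 131, 173 and 169.6 FPKM in the 3WT control leaves, 129.9, 138 and 135 in the lit 3WT leaves, 149, 144 and 153 in the WT-hpca1-WT control leaves and 172, 161 and 161 in the lit WT-hpca1-WT leaves, a chain difference of 0.37 ± 0.09 (SE, adjusted p = 0.00462) that was not called in a fit of the local-leaf libraries alone (adjusted p = 0.0795). The first 3WT control library was the lowest of its group for both entry enzymes, and also for the phloem sucrose transporter SUC2 (132, 150.2 and 159 FPKM in 3WT controls and 121, 119 and 122 in WT-hpca1-WT controls). SUC2 had a chain difference of 0.39 ± 0.07 (SE, adjusted p = 8.68e-05), and the part of the phloem markers in the glucosinolate result was not tested. Without that library the median of the list was 0.43, and in the fit of the local-leaf libraries alone 11 genes were higher and 2 lower.

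Aquaporins of the plasma membrane, the water and hydrogen peroxide channels of the PIP family, were higher for 8 of 13 and lower for 0 (median 0.23); 9 were higher in lit WT-hpca1-WT leaves. RD28 (PIP2;3) was at 51.7, 66.4 and 66.6 FPKM in the 3WT control leaves and 147, 156 and 158 in the lit 3WT leaves. It was at 43, 42.5 and 44.4 FPKM in the WT-hpca1-WT control leaves and 236, 238 and 229 in the lit WT-hpca1-WT leaves. It rose with light in both chains, from a lower start to a higher end in the WT-hpca1-WT chain, and the chain difference was 1.09 ± 0.10 (SE, adjusted p = 5.05e-11). PIP2B (PIP2;2) followed with 0.67 ± 0.06 (SE, adjusted p = 2.88e-11); the 2 genes are close copies that may share reads. Of 8 genes of galactinol, raffinose and inositol synthesis, which make protective sugars, 4 were higher and 1 lower (median 0.27). GolS1, the heat-induced galactinol synthase, was at 128, 155 and 155 FPKM in the 3WT control leaves, 411, 415 and 434 in the lit 3WT leaves, 106, 106 and 111 in the WT-hpca1-WT control leaves and 514, 518 and 513 in the lit WT-hpca1-WT leaves, a chain difference of 0.73 ± 0.07 (SE, adjusted p = 7.03e-10). Its lit WT-hpca1-WT leaves were above all others and its WT-hpca1-WT controls below all others.

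Light-harvesting and photosystem subunits differed by little but in 1 direction: 23 of 42 were higher and 0 lower (median 0.14), 24 were lower and 0 higher in WT-hpca1-WT controls, and 10 were higher and 0 lower in lit leaves. Their count depended on the scaling, with 7 called higher and a median of 0.03 after quantile normalization. LHCB2.3, an antenna protein of photosystem II, was at 1774, 1730.0 and 1692 FPKM in the 3WT control leaves, 1420.2, 1492 and 1500.2 in the lit 3WT leaves, 1446, 1434 and 1443 in the WT-hpca1-WT control leaves and 1745, 1744 and 1735 in the lit WT-hpca1-WT leaves, a chain difference of 0.51 ± 0.04 (SE, adjusted p = 6.83e-14). LHCA1 of photosystem I had a chain difference of 0.15 ± 0.03 (SE, adjusted p = 2.5e-05), which became -0.04 (adjusted p = 0.628) after quantile normalization. Of 3 mesophyll markers 2 were called higher, LHCB2.1, which is itself on the light-harvesting list, and RBCS1A, whose call was lost after quantile normalization (adjusted p = 1). The sums of the 3 markers were 14867 to 15488 FPKM in 3WT controls, 15183 to 15541 in lit 3WT leaves, 14085 to 14423 in WT-hpca1-WT controls and 16413 to 16671 in lit WT-hpca1-WT leaves, and their part in the result was not tested.

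Evening-phased clock genes had lower chain differences, and morning-phased ones were mostly not called. Of 10 evening genes 6 were lower and 0 higher (median -0.39); 5 were higher in WT-hpca1-WT controls. The members called were PRR5, TOC1, GI, PRR3, ELF3 and FKF1, repressors and light-signalling components of the clock. ELF3 lost its call under 10 of 21 alternatives. PRR5 was at 16.1, 15.8 and 16.3 FPKM in the 3WT control leaves, 8.18, 8.83 and 8.6 in the lit 3WT leaves, 26, 22.7 and 22.6 in the WT-hpca1-WT control leaves and 4.45, 4.16 and 5.2 in the lit WT-hpca1-WT leaves. It fell in both chains, farther in the WT-hpca1-WT chain, no groups overlapped, and the chain difference was -1.30 ± 0.12 (SE, adjusted p = 2.31e-10). GI and TOC1 had chain differences of -0.47 ± 0.08 (SE, adjusted p = 5.64e-05) and -0.52 ± 0.10 (SE, adjusted p = 9.59e-05). Of 14 morning genes 1 was called, RVE1, which was not called without the third WT-hpca1-WT control library (adjusted p = 0.057). The core factors CCA1 and LHY had values of -0.14 ± 0.06 and 0.11 ± 0.06 (adjusted p = 0.113 and 0.293). The clock-driven RNA-binding protein GRP7 was at 568, 504 and 514 FPKM in the 3WT control leaves and 52.6, 50.3 and 55 in the lit 3WT leaves. It was at 792, 777 and 722 FPKM in the WT-hpca1-WT control leaves and 49.5, 41.8 and 48.8 in the lit WT-hpca1-WT leaves. It fell in both chains, and the chains overlapped in neither light. The WT-hpca1-WT controls lay above the 3WT controls and the lit WT-hpca1-WT leaves below the lit 3WT leaves. The chain difference was -0.70 ± 0.09 (SE, adjusted p = 2.27e-07). The hours of sampling are not given by the labels, so chain and sampling time cannot be told apart.

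The evening element AAAATATCT was found before the start of 4 of 10 evening genes (40%) and of 2.99% of all windows. It is written here as AGATATTTT, since in the 3 genes shown it lies on the other strand (capitals; RefSeq TAIR10.1, chr5:8358710-8358748 (-), chr5:24674797-24674835 (+) and chr1:25508438-25508476 (+)).
PRR5: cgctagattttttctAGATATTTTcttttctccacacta
TOC1: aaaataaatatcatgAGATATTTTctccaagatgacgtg
FKF1: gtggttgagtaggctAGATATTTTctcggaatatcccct

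The remaining lists were mixed. Of 14 cold-regulated and LEA protein genes 1 was higher and 2 lower (median 0.06), while 10 were higher in WT-hpca1-WT controls and 8 in lit leaves: KIN1 was at 31.7, 25.3 and 31.3 FPKM in the 3WT control leaves, 38.5, 39.9 and 36.9 in the lit 3WT leaves, 60.3, 59.4 and 62.8 in the WT-hpca1-WT control leaves and 90.6, 89.3 and 94.4 in the lit WT-hpca1-WT leaves, a difference between chains in both lights and a chain difference of 0.20 ± 0.13 (SE, adjusted p = 0.339). Leaving out any library but the first lit 3WT, the second WT-hpca1-WT control or the first lit WT-hpca1-WT library left 1 cold-regulated gene lower. Of 15 genes of sugar starvation and dormancy 5 were higher and 4 lower, the 2 dormancy-associated genes DYL1 (-0.44 ± 0.12, adjusted p = 0.0115) and AT2G33830 (-0.82 ± 0.08, adjusted p = 1.37e-10) among the lower ones and the class II trehalose phosphate synthases TPS8 and TPS11 among the higher ones (0.28 and 0.37). Without the first lit WT-hpca1-WT library 2 of these genes were higher. Of 20 flavonoid genes 4 were higher and 2 lower, with PAL1, the first enzyme of phenylpropanoid synthesis, at 0.63 ± 0.07 (SE, adjusted p = 2.29e-09). After quantile normalization 7 flavonoid genes were higher, and leaving out any library but the third 3WT control or the third lit 3WT library left 1 lower. Of 17 light receptor and light signalling genes 3 were higher and 3 lower; the lower ones were HY5, its homologue HYH and their target RUP2, and HYH had a chain difference of -0.76 ± 0.12 (SE, adjusted p = 9.73e-06). RUP2 lost its call under 8 of 21 alternatives. Of 13 abscisic acid genes 1 was higher and 2 lower, and NCED3, the rate-limiting step of synthesis, had a chain difference of -0.39 ± 0.08 (SE, adjusted p = 0.0006). In this list 2 were higher without the first or second 3WT control, the second lit 3WT, or the first or the third lit WT-hpca1-WT library. Leaving out any library but the first 3WT control, the third lit 3WT, the first WT-hpca1-WT control or the third lit WT-hpca1-WT library left 1 lower. Of 8 clock output genes 2 were higher and 4 lower. Leaving out any 1 library left 2 or 3 of these lower, and without the third 3WT control or the first WT-hpca1-WT control library 1 was higher.

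Several genes at the extremes stood on no list or were not yet described. The tau-class glutathione transferase GSTU6 was at 6.04, 8.65 and 10.2 FPKM in the 3WT control leaves, 9.01, 10.4 and 10.4 in the lit 3WT leaves, 3.45, 4.39 and 3.18 in the WT-hpca1-WT control leaves and 16.4, 15.5 and 14.5 in the lit WT-hpca1-WT leaves. Its control groups did not overlap and its lit WT-hpca1-WT leaves stood above all others, with a chain difference of 1.56 ± 0.17 (SE, adjusted p = 8.39e-09). JMT, which makes the volatile methyl jasmonate, and AT5G38130, annotated as an HXXXD-type acyl-transferase, had the same order of groups, with chain differences of 1.23 ± 0.11 and 1.36 ± 0.11 (adjusted p = 8.35e-11 and 1.2e-11). MAPKKK21, a kinase of the MAP kinase cascade, was low in WT-hpca1-WT controls, at 6.3, 4.25 and 5.5 against 20.0, 19.3 and 21.1 FPKM, and its chain difference was 1.28 ± 0.12 (SE, adjusted p = 1.03e-10). DIN11, a 2-oxoglutarate-dependent oxygenase first found as dark-inducible, was high in the 3WT controls alone, at 9.94, 11.1 and 11.1 FPKM against 3.02, 2.99 and 2.53 in the WT-hpca1-WT controls, with a chain difference of 1.80 ± 0.16 (SE, adjusted p = 2.65e-11).

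Below 0, the UDP-glycosyltransferase gene AT1G05675 was at 2.47, 3.08 and 2.85 FPKM in the 3WT control leaves and 21.6, 21.5 and 22 in the lit 3WT leaves. It was at 3.11, 2.68 and 2.81 FPKM in the WT-hpca1-WT control leaves and 6.7, 7.15 and 7.97 in the lit WT-hpca1-WT leaves. Its controls overlapped and it rose in both chains, to the lower level in the WT-hpca1-WT chain, with a chain difference of -1.49 ± 0.19 (SE, adjusted p = 2.41e-07). AT3G02840, annotated with ARM repeats, reached 15.2, 16 and 16.3 FPKM in lit 3WT and 8.51, 7.26 and 8.33 in lit WT-hpca1-WT leaves, and the EF-hand calcium-binding gene AT3G01830 28.7, 30.8 and 25.4 and 12.2, 13.1 and 12.9. Their chain differences were -1.65 ± 0.17 and -1.55 ± 0.14 (adjusted p = 1.74e-09 and 2.64e-11), and in both the lit groups lay apart. NAC090, a transcription factor of the NAC family, rose in the 3WT chain by 1.55 and had a light response of -0.04 in the WT-hpca1-WT chain, a chain difference of -1.59 ± 0.17 (SE, adjusted p = 5.32e-09). CAX3, a vacuolar calcium and proton exchanger, was at 8.88, 9.17 and 8.71 FPKM in the 3WT control leaves, 8.6, 8.43 and 7.81 in the lit 3WT leaves, 14.6, 13.5 and 14.2 in the WT-hpca1-WT control leaves and 4.85, 4.28 and 4.43 in the lit WT-hpca1-WT leaves. It stood high in the WT-hpca1-WT controls and low in the lit leaves of that chain, and its chain difference was -1.36 ± 0.08 (SE, adjusted p = 1.57e-15). AT1G56060 varied more between replicates than these, at 11.1, 8.02 and 13.8 FPKM in WT-hpca1-WT controls and 16.3, 16.5 and 22.2 in lit 3WT leaves, and its chain difference of -1.77 ± 0.49 had the largest SE of the 12 lowest genes (adjusted p = 0.00845).

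The chain difference was also measured in 3 further leaves of each chain, labelled systemic leaf 1, 2 and 3. The labels give systemic leaf 2 as hpca1-1 in WT-hpca1-WT chains and the others as wild type. Values in the local leaf and systemic leaf 1 differed for 2244 genes, with 1070 higher (5.71%) and 1174 lower (6.27%) in the local leaf. Against systemic leaf 2 it differed for 4191 genes, 1262 higher (6.74%) and 2929 lower (15.6%), and against systemic leaf 3 for 2342 genes, 730 higher (3.90%) and 1612 lower (8.60%). These comparisons share the local-leaf libraries. The 2929 lower genes became 1704 after median-of-ratios scaling and 1807 after quantile normalization. The 12 largest called chain differences each way were taken among coding nuclear genes with a group mean of at least 10 FPKM and no 0 in a group with a mean of at least 5. This leaves out genes with more extreme values, such as PDF1.2c and DDF1. Of these 24 genes 7 differed from all 3 systemic leaves: AT5G47330, JAZ10, XTH18, CML37, AT1G78410, AT3G02840 and CSD2. Of all 2189 called genes that met the same limits, 407 (18.6%) did so. The 24 were picked for their values in the local leaf, which favours a difference from the other leaves. XTH18 had -2.30 in the local leaf and -0.95, 0.16 and 0.86 in systemic leaves 1, 2 and 3. CSD2 had -1.49 in the local leaf and -0.48, 0.02 and 0.52 in the others, all different from it. AT5G47330, annotated as an alpha/beta-hydrolase, was at 11.7, 11.8 and 13 FPKM in the 3WT control leaves, 2.99, 2.71 and 2.48 in the lit 3WT leaves, 3.18, 3.48 and 3.17 in the WT-hpca1-WT control leaves and 3.06, 2.67 and 2.68 in the lit WT-hpca1-WT leaves in the local leaf; it stood high in the 3WT controls alone, and its chain difference was 1.65 there and 0.83, -0.73 and -1.32 in the systemic leaves.

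Other extreme genes had large values in systemic leaf 1 too. PDF1.2 had a chain difference of 5.33 in the local leaf and 5.48 in systemic leaf 1, a difference that did not pass the test (adjusted p = 0.844), and 1.71 and -0.90 in systemic leaves 2 and 3, which did (adjusted p = 1.85e-11 and 3.36e-17). For JAZ10 the local value of 1.26 lay between 2.43 in systemic leaf 1 and -0.26 in systemic leaf 2. Of the list medians, jasmonate genes were at 0.58 in the local leaf and 1.44, -0.45 and 0.24 in systemic leaves 1, 2 and 3, endoplasmic reticulum folding genes at -0.61 and -0.30, 0.31 and -0.12, salicylate genes at -0.71 and -0.33, 0.41 and 0.23, and touch genes at -0.45 and -0.47, 0.13 and 0.47. For all 4 lists systemic leaf 1 had the sign of the local leaf and systemic leaf 2 the opposite one. The medians over all genes, at -0.03 in the local leaf and -0.07, 0.07 and 0.03 in systemic leaves 1, 2 and 3, also had this order of signs. Not every list did. Defensin branch genes were at 0.55 in the local leaf and 0.81 and 0.78 in systemic leaves 1 and 2. Light-harvesting genes were at 0.14 in the local leaf and -0.07 and 0.03 in systemic leaves 1 and 2.

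**Figure D4:**
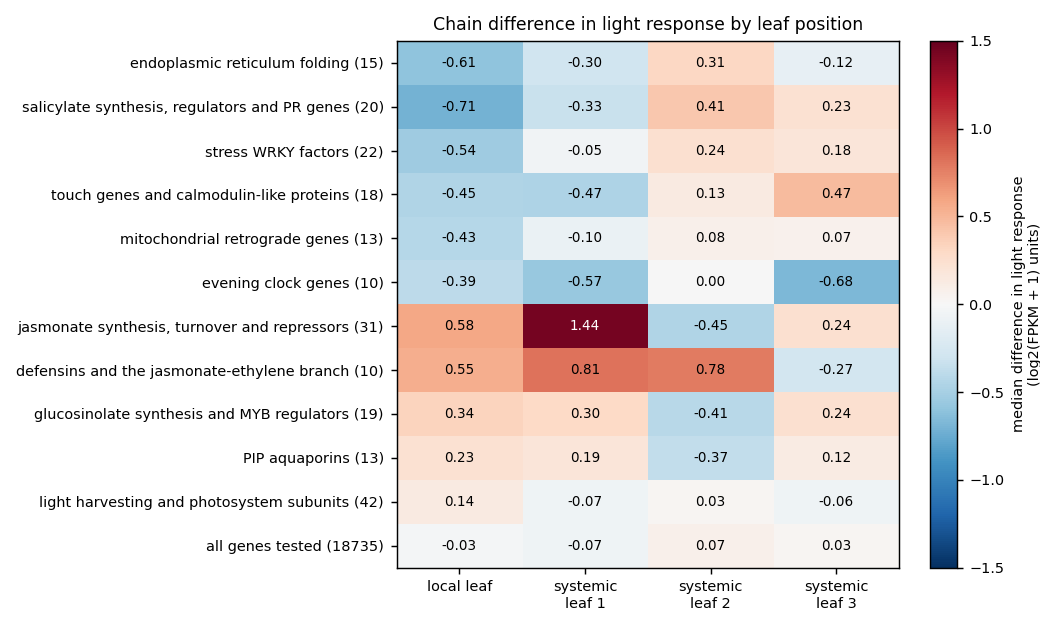
Median chain difference in the light response (colour and printed value, log2) in the local leaf and systemic leaves 1, 2 and 3 (columns). The rows are a selection of the 28 gene lists, and all genes tested. The local column runs from -0.71 for the salicylate list to 0.58 for the jasmonate list, and the column of systemic leaf 2 has the opposite sign for both (0.41 and -0.45).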

How the data were processed

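RNA of Arabidopsis thaliana leaves was sequenced, and the authors deposited FPKM per gene and library. The submitters' processing notes list Trim Galore 0.6.10, FastQC 0.12.1, HISAT2 2.2.1, SAMtools 1.18, Cufflinks 2.2.1, Cuffdiff 2.2.1 and the TAIR10 build, with no settings. The table of the contact experiment was not used here. Libraries were assigned to groups by their titles. Of 32824 genes, 32539 were matched by locus tag to names in the TAIR10.1 annotation, which has the coordinates used for the promoter windows.

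Genes that reached 1 FPKM in 3 or more of 48 chain libraries were kept, and log2(FPKM + 1) was fitted with limma 3.58.1 (R 4.3.3; 16 group means, eBayes with trend). All tests were two-sided with Benjamini-Hochberg adjustment over all 18735 genes, and a gene was called at an adjusted p under 0.05. The fit was tested on simulated data. Fitting all positions shares 1 estimate of spread, and the 12 local-leaf libraries alone were an alternative. Other alternatives were a pseudocount of 0.1, a filter at an FPKM of 5, no filter, median-of-ratios scaling, quantile normalization, eBayes without trend, robust eBayes, a replicate block, a minimum change of 1 and leaving out each library.

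FPKM carries no fragment totals, so counting intervals were not available. Relative depth came from the steps between low values of the same gene. FPKM is relative to the library total, so a shift in a few abundant transcripts moves all others. The comparison, the gene lists and the choice of genes were made with earlier results of these data known. Genes were named by a rule. It took HPCA1, the light-response genes HSP101, STZ, RHL41, ELIP1, APX2 and GolS1, and the clock output gene GRP7. It added the 12 largest differences each way among called, coding nuclear genes within limits. These were a group mean of at least 10 FPKM and no 0 in a group with a mean of at least 5. Up to 4 called genes per list with the smallest p and 2 per pattern of light responses were also taken. A further 39 genes were named for their role after their values had been seen.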

Additional observations from a re-analysis of the deposited data

Results flagged for a closer look

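The light response of the local leaf differed between chains, by the test of the difference itself, for 1038 genes with a higher and 1835 with a lower chain difference (limma, Benjamini-Hochberg adjustment).

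The chain difference in turn differed between leaf positions for 2244 genes against systemic leaf 1, 4191 against systemic leaf 2 and 2342 against systemic leaf 3. The 12 largest called chain differences each way were taken among coding nuclear genes with a group mean of at least 10 FPKM and no 0 in a group with a mean of at least 5, which leaves out more extreme genes such as PDF1.2c. Of these 24 genes 7 differed from all 3 systemic leaves, against 407 of 2189 called genes within the same limits (18.6%). They were picked for their values in the local leaf, which favours such a difference. The chain differences of the 7 in the local leaf were 1.65 for AT5G47330, 1.26 for JAZ10, -2.30 for XTH18, -1.78 for CML37, -1.74 for AT1G78410, -1.65 for AT3G02840 and -1.49 for CSD2.

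Groups held 3 libraries each, and no test for an outlying library was run within a group.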

How the results depend on the processing

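Without single libraries, between 865 and 1057 genes had a higher and between 1562 and 1771 a lower chain difference in the local leaf. Requiring a change of at least 1 (log2) left 60 higher and 107 lower genes for the chain difference, 21 and 57 between control leaves, 15 and 46 between lit leaves, 519 and 250 for the 3WT light response, 437 and 390 for the WT-hpca1-WT light response, and 53 and 232, 300 and 409, and 77 and 261 against systemic leaves 1, 2 and 3. That rule only narrows the calls, so the fall follows from its construction. Median-of-ratios scaling gave 4882 rising and 3865 falling genes in the 3WT light response, 4798 and 4270 in the WT-hpca1-WT light response, and 1704 genes lower than in systemic leaf 2. Quantile normalization gave 5343 falling in the WT-hpca1-WT light response and 1807 lower than in systemic leaf 2. The cause of these changes was not tested. The median of all genes moved from -0.03 to -0.0060 without a filter, -0.0097 after median-of-ratios scaling and 0.011 after quantile normalization. List medians moved by more than the spread of the replicate list means as follows. With a pseudocount of 0.1 they were -0.16 for chaperones, -0.44 for evening clock genes, 0.68 for defensin branch and -0.48 for mitochondrial retrograde genes. With a filter at an FPKM of 5 they were -0.058 for heat shock factors, -0.11 for reactive oxygen and calcium signalling, 0.091 for flavonoid pathway, 1.14 for defensin branch, -0.027 for abscisic acid genes, -0.60 for WRKY factors and -0.75 for touch genes. Without a filter they were -0.0025 for flavonoid pathway, 0.15 for galactinol synthesis, 0.46 for defensin branch and 0.028 for abscisic acid genes. They were also -0.36 for CBF, DDF and DREB2 factors, -0.072 for ethylene response factors and -0.27 for touch genes without a filter. Mitochondrial retrograde genes were then at -0.38 and light receptors and signalling at 0.036. After median-of-ratios scaling they were -0.029 for antioxidant enzymes, -0.027 for reactive oxygen and calcium signalling, 0.062 for photoprotection, 0.16 for light harvesting, -0.68 for salicylate genes and 0.082 for cold-regulated genes. After quantile normalization they were -0.18 for small heat shock proteins, -0.088 for chaperones, 0.034 for heat shock factors, -0.018 for antioxidant enzymes, -0.20 for zinc finger factors, 0.016 for reactive oxygen and calcium signalling, 0.076 for photoprotection, 0.027 for light harvesting, 0.0010 for flavonoid pathway, 0.33 for galactinol synthesis, 0.054 for morning clock genes, -0.35 for evening clock genes, -0.0056 for clock output genes, 0.61 for jasmonate genes, -0.66 for salicylate genes, 0.14 for abscisic acid genes, -0.45 for WRKY factors, -0.22 for ethylene response factors, 0.21 for sugar starvation genes, -0.37 for mitochondrial retrograde genes and 0.15 for light receptors and signalling. Without single libraries the medians ran from 0.21 to 0.33 for galactinol synthesis, -0.58 to -0.50 for WRKY factors, -0.49 to -0.34 for mitochondrial retrograde genes, 0.30 to 0.43 for glucosinolate genes, -0.30 to -0.20 for small heat shock proteins, -0.045 to 0.020 for heat shock factors, 0.12 to 0.19 for sugar starvation genes, -0.73 to -0.65 for salicylate genes, -0.058 to -0.023 for reactive oxygen and calcium signalling, 0.049 to 0.16 for abscisic acid genes, 0.032 to 0.063 for photoprotection, -0.32 to -0.20 for ethylene response factors, -0.36 to -0.19 for zinc finger factors and -0.062 to 0.026 for flavonoid pathway. The filters change which members are in a list; for the other settings the cause was not tested. The medians of heat shock factors, flavonoid, abscisic acid, morning clock and reactive oxygen signalling genes changed sign under at least 1 alternative, and those of the other lists under none. Of 162 named genes with a called chain difference, 133 kept the call and sign under every alternative fit and without any single library; the minimum change of 1 was not applied to single genes. LHCA1 reversed, to -0.035 (adjusted p = 0.628), after quantile normalization.

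Groups shared replicate numbers, but no pair of same-numbered libraries deviated together (correlations of -0.173 to 0.0945 over 18 pairs, 0 above 0.1). A fit with the replicate number as a block gave 1065 higher and 1849 lower genes for the chain difference. Fragment totals are not recorded, so the counting error behind an FPKM is unknown, and 3 libraries a group limit the precision of each fold change. A value of 0 FPKM can be a failed estimate: 82 tested genes had a group mean of at least 5 and a 0 in that group.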

Other observations

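Families in the annotation of the reference were counted as well, over product names with at least 10 tested genes, and the ones given here were chosen after their values were seen. Over all genes 9.79% had a lower and 5.54% a higher chain difference. Of 40 disease resistance proteins of the TIR-NBS-LRR class, the intracellular immune receptors, 20 were lower and 0 higher (median -0.26). Leucine-rich repeat transmembrane kinases and proteins of the SPFH/Band 7 family, which organise membranes, had 5 lower members of 10 each (medians -0.21 and -0.30). Other product names of leucine-rich repeat kinases had smaller shares of lower genes. Of 76 leucine-rich repeat protein kinases 14 were lower (18.4%) and 6 higher (7.89%), with a median of -0.01. Of 20 leucine-rich receptor-like kinases 0 were lower and 4 higher (median 0.14). Of 10 SNF7 proteins, subunits of the ESCRT machinery that sorts membrane proteins, 4 were lower. Of 29 calcium-binding EF-hand proteins 9 were lower and 1 higher (median -0.18).

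Other families had more higher than lower members, of which 5 are given. Of 34 HXXXD-type acyl-transferases, which acylate alcohols and amines of specialised metabolism, 10 were higher and 3 lower (median 0.23). Of 38 GDSL lipases 9 were higher and 1 lower, of 31 lipid-transfer proteins 8 were higher and 5 lower, and of 16 TRAF-like proteins 5 were higher and 0 lower. Of 13 subtilases, secreted proteases, 5 were higher and 2 lower (median 0.10). Members of such families can be close copies that share reads, so single values within them are uncertain.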
